A study of Mus musculus with 56 samples.

Results

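The genes described here are 36 genes of sterol and fatty acid synthesis: the enzymes that build cholesterol from acetyl-CoA, the regulators of the SREBP pathway, carriers of sterol, and the enzymes that make, lengthen and desaturate fatty acids. They were taken by symbol from a list, not by a cutoff on their values. The list was chosen with earlier results of these data known. Of these, 33 were represented on a mouse oligonucleotide array by 35 probes, among 15063 genes with a named probe. Acat2, Hmgcs1 and Scap had no probe in the annotation used here.

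Total RNA of 2 mouse cell lines was compared on 2-color arrays: OV, an ovarian surface epithelium line, and 3T3, a fibroblast line. The labels name no treatment, and each comparison used 1 RNA pool per line, so the growth state of the cultures, which the sources used here do not give, cannot be told apart from the line. Unamplified cDNA was made from 100 μg of RNA. The same comparison was made after amplification from 10 ng. The methods were 3 rounds of T7 in vitro transcription (IVTIII), global PCR of tailed cDNA (GA) and template-switching PCR (SMART). A modified form of SMART had another primer and a lower temperature (SM37). The 10 ng went into the first reaction, and only fractions of the products were carried on. For the PCR methods the study did so to bring the amount to that of a single cell. GA and SMART were also made from 10 pg, about the RNA of a single cell. Each of these 7 comparisons has 4 arrays that include dye swaps. By the methods of the study each comparison holds 2 independent replicates per line, made from the same pools. The 4 arrays are thus not 4 independent amplifications, although the fits take them as independent. The spread between arrays, and every p-value here, covers amplification, labeling and hybridization and not the spread between cultures. A further 28 arrays had no cell line contrast: a target against itself, technical replicas of OV against each other, and pools of neural progenitors from embryonic neocortex.

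The values are log2 ratios of one dye to the other on the same array. The study's text gives the direction of the ratio in both ways in different places, and Cy5 over Cy3 is taken as the likely one, from its account of the averages over 4 arrays and from the markers given below. With that reading every ratio was turned by the dye labels to OV over 3T3, so a negative value means less RNA in OV; with the other reading every sign given for OV and 3T3 would turn. In unamplified cDNA the markers of the labelled cell types fell on the side of their own line only in part. Of 11 epithelial and mesothelial markers measured, 7 were called higher in OV, among them Wt1 at a log2 ratio of 3.65, Krt8 at 3.44 and Gata6 at 3.29, and Krt18 was called lower at -0.75. Of 9 fibroblast markers, Prrx1 (-3.33), Thy1 (-0.97) and S100a4 (-0.69) were called lower in OV, but the collagen genes Col3a1 (2.15) and Col1a1 (1.47) were called higher. Cdkn2a, listed as a check of the direction, was called higher in OV at 1.58. Adipocyte markers, which a fibroblast line could hold, were near 0 for Adipoq (0.20) and Fabp4 (-0.05), and Pparg was called lower in OV at -0.62. Of 4 tested markers of steroid-producing cells of the ovary, 2 were called higher in OV and none lower, with means from -0.27 to 2.28. Of 4 macrophage markers, 1 was called higher and none lower, with means from -0.05 to 1.26. Over all genes 8.81% were called higher.

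Animal cells make cholesterol by a long chain of steps in which acetyl-CoA is turned into mevalonate, then into isoprenoids such as farnesyl diphosphate, then into squalene and lanosterol, and finally into cholesterol. The transcription factors SREBP-1 and SREBP-2, encoded by Srebf1 and Srebf2, are held in the endoplasmic reticulum by SCAP and the INSIG proteins when sterols are plentiful, and are released to the Golgi, cleaved and sent to the nucleus when sterols are scarce. SREBP-2 is known mainly for the genes of cholesterol synthesis and uptake, and SREBP-1c for those of fatty acid synthesis. Genes of this pathway are therefore often seen to change together.

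In unamplified cDNA most of these genes had less RNA in OV than in 3T3. A gene was called where it had a value on all 4 arrays and limma's log odds of a difference (LOD, at a prior share of changed genes of 0.01) was above 0. Of 32 of the genes with a value on all 4 arrays, 14 (43.8%) were called lower in OV, against 7.3% of all 10185 genes tested, and none was called higher, against 8.81%. At a Benjamini-Hochberg adjusted p under 0.05 across all genes, a looser rule here, 24 were lower (all genes 24.8%) and 4 higher (all genes 24%). The median log2 ratio of the 32 genes was -0.53, beside -0.00 over all genes, and 27 of the 32 had a mean below 0. The sign was the same on all 4 arrays for 29 of them. The median SD over arrays was 0.21 for these genes and 0.15 for all genes tested. Array 2 held the value nearest 0 for 21 of the 32 genes (65.6%, beside 45.5% of all genes), so the sizes below rest on arrays that differ in the width of their ratios.

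**Figure D1:**
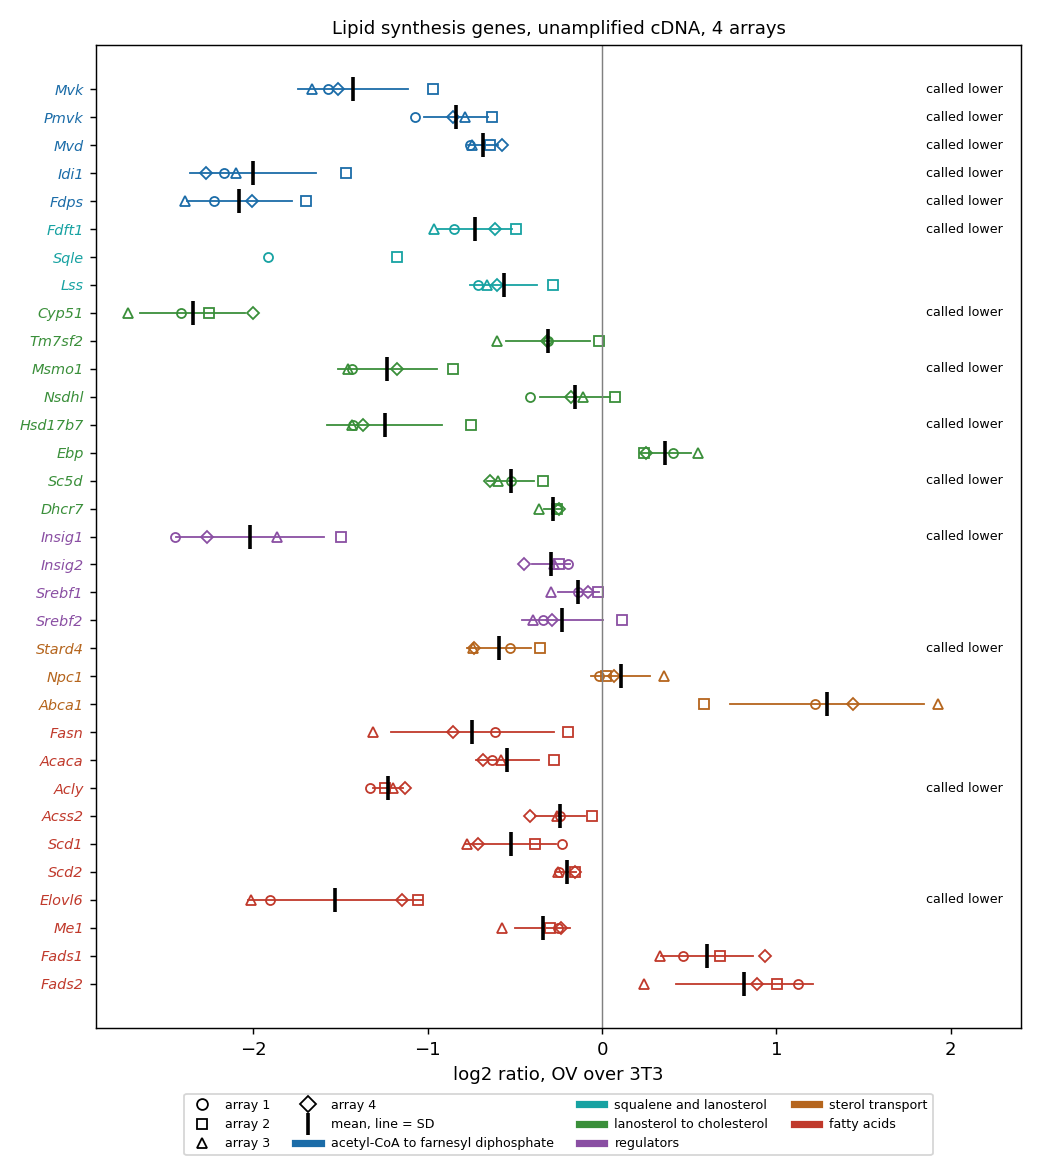
Log2 ratios of OV over 3T3 in unamplified cDNA for the sterol and fatty acid synthesis genes, in the order of their role, with an open symbol for each of the 4 arrays, a black tick for their mean and a line for the SD. The called genes all lie left of 0, from Cyp51 at -2.35 to Sc5d at -0.52, and Abca1, Fads1, Fads2, Ebp and Npc1 have means above 0 without a call.

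The 5 measured genes of the mevalonate part of the pathway, from mevalonate to farnesyl diphosphate, were all called lower in OV, with a median log2 ratio of -1.43. Fdps, the synthase of farnesyl diphosphate, had log2 ratios of -2.22, -1.70, -2.39 and -2.01 on arrays 1 to 4. Its mean of -2.08 ± 0.30 (SD, n = 4 arrays) is a level 4.23-fold lower in OV, with a limma adjusted p of 0.000143. Idi1, which interconverts the 5-carbon isoprenoid units, had -2.17, -1.47, -2.10 and -2.27, a mean of -2.00 ± 0.36 or 4.01-fold lower (adjusted p = 0.000245). These genes ranked 20 and 22 from the lowest ratio among 10185 genes, and on array 2 each was closer to 0 than on the other arrays. Mvk, the mevalonate kinase, had -1.57, -0.97, -1.66 and -1.51, a mean of -1.43 ± 0.31 or 2.69-fold lower (adjusted p = 0.000452). Pmvk, which adds the next phosphate, had -1.08, -0.63, -0.79 and -0.85, a mean of -0.84 ± 0.18 (adjusted p = 0.000718). Mvd, the decarboxylase that ends the mevalonate steps, had -0.76, -0.65, -0.75 and -0.58, a mean of -0.68 ± 0.09 (adjusted p = 0.000559). No array put any of these 5 genes above 0, and the differences between Pmvk and Mvd are no larger than the spread of their arrays.

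Of the steps through squalene and lanosterol, Fdft1, the squalene synthase, had log2 ratios of -0.85, -0.49, -0.96 and -0.61, with a mean of -0.73 ± 0.21 and a level 1.66-fold lower in OV (adjusted p = 0.00152). Its call was lost without array 1, 3 or 4, at means of -0.69, -0.65 and -0.77. Sqle, the squalene epoxidase and a rate-limiting step of the later pathway, had a value on arrays 1 and 2 only, -1.92 and -1.17, and was not tested. Lss, the lanosterol synthase, had a mean of -0.56 ± 0.19 and was not called, although its adjusted p was 0.00294.

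The steps from lanosterol to cholesterol held the lowest ratio of the whole list. Cyp51, the lanosterol demethylase, had log2 ratios of -2.41, -2.25, -2.72 and -2.00, a mean of -2.35 ± 0.30 and a level 5.09-fold lower in OV (adjusted p = 0.00011). It ranked 14 from the lowest of all 10185 genes, with every array at or below -2.00. Hsd17b7, a sterol ketone reductase, had -1.43, -0.75, -1.43 and -1.37, a mean of -1.25 ± 0.33 or 2.37-fold lower (adjusted p = 0.000737), with array 2 apart from the other arrays. Msmo1, the methylsterol oxidase, had -1.44, -0.85, -1.46 and -1.18, a mean of -1.23 ± 0.28 or 2.35-fold lower (adjusted p = 0.000556). Sc5d, the sterol desaturase, had a smaller ratio, -0.52, -0.34, -0.59 and -0.64, with a mean of -0.52 ± 0.13 (adjusted p = 0.002), and its call was lost without array 1, 3 or 4, at means of -0.52, -0.50 and -0.48. The other 4 genes of these steps were not called: Tm7sf2, a sterol reductase, at -0.31 ± 0.24, Nsdhl, the decarboxylating dehydrogenase, at -0.16 ± 0.20, Dhcr7, the last reductase, at -0.28 ± 0.05, and Ebp, the sterol isomerase, at 0.36 ± 0.15. Over all steps from mevalonate to cholesterol, 10 of 15 tested genes were called lower in OV, with a median of -0.73, and 14 had a mean below 0.

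Among the regulators the genes of the SREBPs themselves were near 0. Srebf1 had a mean of -0.14 ± 0.12 and Srebf2 of -0.23 ± 0.23, neither called. Insig1, which holds the SREBP-SCAP complex in the endoplasmic reticulum and is itself a known SREBP target, had log2 ratios of -2.45, -1.50, -1.86 and -2.26. Its mean of -2.02 ± 0.42 is a level 4.05-fold lower in OV (adjusted p = 0.000353), the 21st lowest ratio of all genes. Insig2, a related protein not known as an SREBP target, had a mean of -0.29 ± 0.11 and was not called. The 95% intervals of limma for Insig1 and Insig2 do not overlap.

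The carriers of sterol did not move together. Stard4, a cytosolic sterol carrier, had log2 ratios of -0.53, -0.36, -0.74 and -0.73, a mean of -0.59 ± 0.18 (adjusted p = 0.00227), and its call was lost without array 1, 3 or 4, at means of -0.61, -0.54 and -0.54. Npc1, which moves cholesterol out of lysosomes, was at 0.11 ± 0.17. Abca1, the pump that exports cholesterol and is known as a target of the sterol-sensing LXR receptors, ran the other way, at 1.22, 0.58, 1.92 and 1.44. Its mean of 1.29 ± 0.56 is a level 2.45-fold higher in OV (adjusted p = 0.00311), but with a LOD of -0.29 it was not called. It was called without array 2, at 1.53, and with the arrays scaled to a common width, at 1.24.

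Of the fatty acid genes 2 of 10 were called lower in OV (all genes 7.3%), with a median of -0.43, and at an adjusted p under 0.05 the number was 8 (all genes 24.8%). Acly, which makes cytosolic acetyl-CoA from citrate and so feeds both sterol and fatty acid synthesis, had log2 ratios of -1.33, -1.25, -1.20 and -1.13, a mean of -1.23 ± 0.09 or 2.34-fold lower (adjusted p = 0.00011). Its arrays and those of Mvd lay about equally close together, and closer than those of any other gene called in unamplified cDNA. Elovl6, the elongase of long-chain fatty acids, had -1.90, -1.06, -2.01 and -1.15, a mean of -1.53 ± 0.50 or 2.89-fold lower (adjusted p = 0.00123), which was not called without array 1, at -1.41. Fasn, the fatty acid synthase, ranged from -1.32 to -0.19 over arrays, with a mean of -0.74 ± 0.47 that was not called (adjusted p = 0.013). Acaca, the acetyl-CoA carboxylase, was at -0.54 ± 0.18 and not called, with its probes of 4 values at -0.61 and -0.48. Without array 2 it was called, at -0.63.

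The desaturases ran in both directions without a call. Scd1 was at -0.52 ± 0.26 and Scd2 at -0.20 ± 0.06, both desaturases of saturated fatty acids. Fads1, a desaturase of polyunsaturated fatty acids, had log2 ratios of 0.46, 0.67, 0.33 and 0.93, with a mean of 0.60 ± 0.26 (adjusted p = 0.00501). Fads2, its neighbor in the same pathway, had 1.12, 1.01, 0.24 and 0.89, with a mean of 0.82 ± 0.39 (adjusted p = 0.00537), and was called without array 3, at 1.01. All 4 arrays put both genes above 0. Acss2, the acetyl-CoA synthetase, at -0.24 ± 0.14 and Me1, the malic enzyme that yields NADPH, at -0.34 ± 0.16 were not called.

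Promoters are shown for a few of these genes because SREBPs are known to act there with NF-Y, which binds CCAAT, and Sp1, which binds GGGCGG. RefSeq promoter windows of 250 bases before to 50 after a gene's start (build GRCm38.p6) matched 28 of the 36 genes, and motifs were searched on both strands. CCAAT was in the window of 22 of the 28 genes (78.6%), in 10 of 11 called lower in OV (90.9%) and in 11 of 14 tested and not called (78.6%), against 42.9% of the 8056 genes tested in unamplified cDNA with a window and 37.4% of all 32851 windows. Called and uncalled genes of the list thus differed by less than either did from other genes, without a test. GGGCGG was in 24 of 28 (85.7%, beside 62.6% of tested genes and 35.7% of all windows), and CACGTG, an E box, in 6 of 28 (21.4%, beside 10.8% and 7.15%). The strict form of the sterol regulatory element, TCACNCCAC, was found in 1 of 28 windows, that of Hmgcs1, beside 1.40% of tested genes and 1.24% of all windows. Each motif was counted by itself, also where its match overlapped that of another. A match is a description and not a site, and a window without one says only that these letters are not in it. The 250 bases before the start are given 5′ to 3′ on the gene's strand for Cyp51 (chr5:4104698-4104947, minus strand) and Insig1 (chr5:28071162-28071411, plus strand), the called genes with the lowest ratios among those with a window, and for Mvk (chr5:114444019-114444268, plus strand), the called gene with the most matches to CCAAT, with CCAAT or its reverse complement ATTGG in capitals. Hmgcs1 (chr13:119690101-119690350, plus strand), which has no probe here, is shown for the TCACNCCAC match, in capitals. Mvk and Hmgcs1 were chosen after their matches were seen.
Cyp51: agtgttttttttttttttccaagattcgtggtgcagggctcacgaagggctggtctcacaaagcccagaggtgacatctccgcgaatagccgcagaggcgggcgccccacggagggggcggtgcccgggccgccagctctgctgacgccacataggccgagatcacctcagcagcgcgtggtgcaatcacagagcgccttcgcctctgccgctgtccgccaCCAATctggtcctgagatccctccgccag
Insig1: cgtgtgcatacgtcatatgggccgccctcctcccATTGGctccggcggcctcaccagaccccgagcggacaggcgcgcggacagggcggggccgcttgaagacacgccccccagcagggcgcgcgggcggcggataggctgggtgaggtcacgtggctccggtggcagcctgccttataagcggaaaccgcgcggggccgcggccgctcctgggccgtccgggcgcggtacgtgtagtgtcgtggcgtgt
Mvk: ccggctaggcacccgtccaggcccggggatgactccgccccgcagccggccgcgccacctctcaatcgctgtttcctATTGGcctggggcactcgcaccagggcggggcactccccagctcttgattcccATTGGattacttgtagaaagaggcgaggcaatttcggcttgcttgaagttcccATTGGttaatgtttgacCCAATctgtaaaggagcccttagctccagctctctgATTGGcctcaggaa
Hmgcs1: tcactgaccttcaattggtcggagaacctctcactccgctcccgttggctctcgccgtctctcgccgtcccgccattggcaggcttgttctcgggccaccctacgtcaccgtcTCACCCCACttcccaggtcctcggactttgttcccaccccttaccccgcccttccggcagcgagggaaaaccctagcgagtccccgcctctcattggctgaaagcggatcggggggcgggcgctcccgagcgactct

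The capitals show 1 match to CCAAT in Cyp51 and 1 in Insig1, against 5 in Mvk, whose ratio of -1.43 was smaller than those of Cyp51 (-2.35) and Insig1 (-2.02). The count of matches and the size of the ratio were not tested against each other.

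Other genes of the same and related pathways, from lists chosen beside these genes, were divided. Over all genes 7.3% were called lower and 8.81% higher. Of 6 further genes of sterol synthesis and control that were tested, Tmem97, a sterol-responsive membrane protein, was called lower in OV at -1.79 ± 0.32, Lbr, a sterol reductase of the nuclear envelope, was called lower at -0.57, and Mbtps1, the protease that first cleaves SREBPs, was called higher at 0.90. Of 11 genes of sterol uptake, storage and efflux, 2 were called lower, the receptor gene Lrp8 (-1.60) and the caveolin gene Cav1 (-1.33), and 2 higher, the lysosomal lipase gene Lipa (1.07) and the lipoprotein receptor gene Vldlr (1.00). A further list of fatty acid and glycerolipid metabolism was not limited to synthesis, since it also holds Lpl and Cpt1a. Of its 23 tested genes, 3 were called lower, Acsl3 (-1.30), Aacs (-0.94) and Fads3 (-0.51). The 4 called higher were the lipoprotein lipase gene Lpl (1.92), Mid1ip1 (1.85), Gpam (1.00) and Cpt1a (0.83). The medians of these lists were -0.19, 0.07 and -0.11, all nearer 0 than that of the genes above. Markers of proliferating cells moved in the same direction as the sterol genes: of 17 of 18 markers measured, 6 were called lower in OV (all genes 7.3%) and 1 higher (all genes 8.81%), with a median of -0.50 and a range from -1.39 for Cdk1 to 0.57 for Ccnb2. Their part in the result was not tested. In bulk RNA of a line, less RNA per cell and fewer cells with it cannot be told apart.

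Most arrays of amplified targets measured fewer of these genes, and fewer of all genes, than those of unamplified cDNA. Over the 4 arrays of a comparison, 32 to 33 of them had a value on an array of unamplified cDNA, 13 to 18 with IVTIII, 24 to 31 with GA, 25 to 32 with SMART, 21 to 26 with SM37, 6 to 18 with SMART at 10 pg and 10 to 29 with GA at 10 pg. Of all genes, 73.1% to 88.5% had a value in unamplified cDNA, 31.9% to 41.9% with IVTIII and 49.9% to 80.3% with GA. With SMART it was 58.2% to 88.9% and with SM37 50.3% to 62.6%. At 10 pg it was 13.2% to 28.6% with SMART and 30.5% to 90.2% with GA. Only genes with a value on all 4 arrays were tested, and why values are missing is not stated. Over all genes, the single arrays of a comparison correlated with each other at r from 0.77 to 0.88 in unamplified cDNA, from -0.09 to 0.70 with SMART, where arrays 1 and 4 were farthest apart, and from 0.45 to 0.86 with GA. These correlations are across genes, which are not independent replicates.

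**Figure D2:**
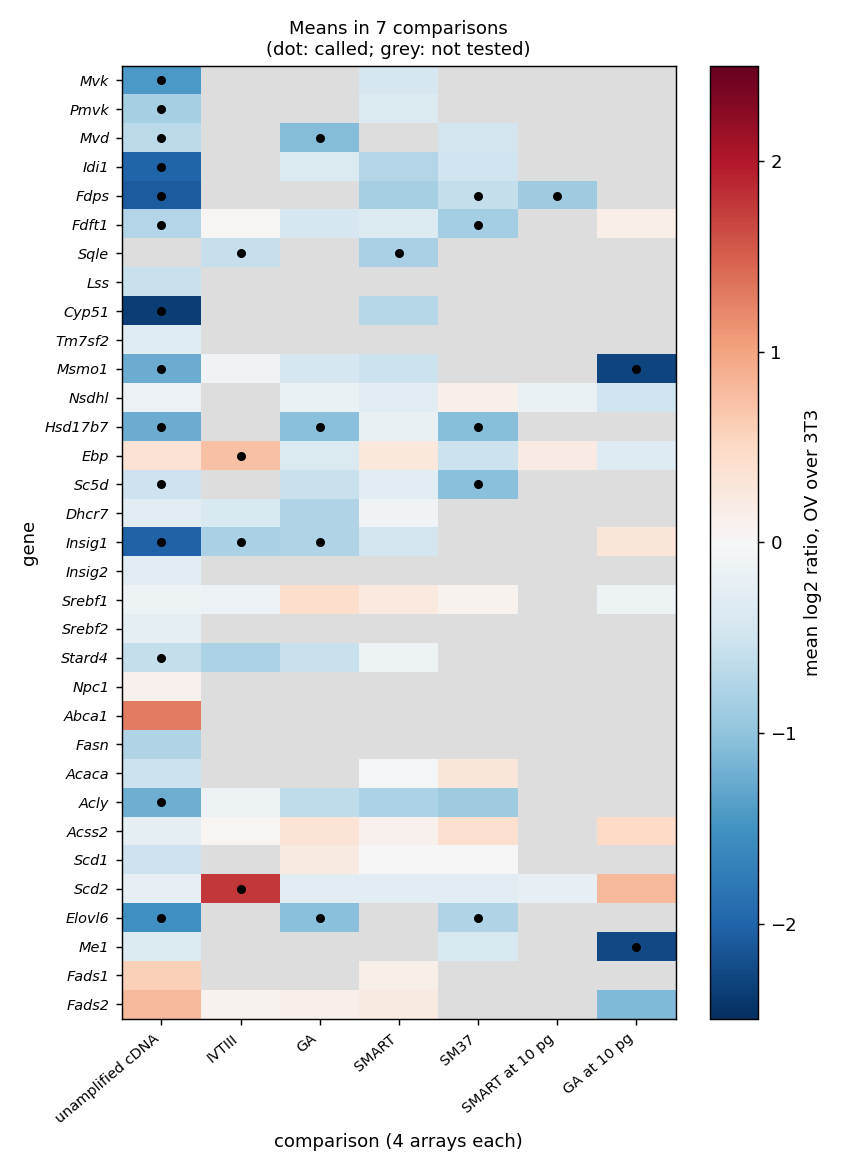
Mean log2 ratio of OV over 3T3 for each sterol and fatty acid synthesis gene (vertical axis, by role) in each of the 7 comparisons of 4 arrays (horizontal axis), with blue below 0, red above 0, grey where the gene was not tested and a dot where it was called. The tested genes from Mvk to Dhcr7 are blue in unamplified cDNA with Ebp as the exception, most are paler after SMART, and the dots on red belong to Scd2 and Ebp with IVTIII.

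With IVTIII, 12 of the genes were tested and none of the mevalonate steps was among them. Calls ran in both directions, 2 lower in OV (all genes 10.4%) and 2 higher (all genes 11.6%), and the median was -0.10. At an adjusted p under 0.05, 4 were lower (all genes 26.6%) and 2 higher (all genes 29.3%). Scd2 had log2 ratios of 1.45, 1.74, 1.89 and 1.99, a mean of 1.76 ± 0.24 or 3.40-fold higher in OV (adjusted p = 3.3e-05), where unamplified cDNA gave -0.20. Ebp was at 0.61, 0.88, 0.66 and 0.76, a mean of 0.73 ± 0.12 (adjusted p = 0.0004), in the direction of its unamplified 0.36. On every array both genes lay well above 0. Sqle, which unamplified cDNA had on too few arrays, was at -0.59, -0.56, -0.60 and -0.56 (mean -0.58 ± 0.02, adjusted p = 0.000714), and Insig1 was at -0.88, -1.10, -0.49 and -0.76 (mean -0.81 ± 0.25, adjusted p = 0.000826). The number called lower was 0 without array 1 or array 2 and 1 without array 3 or array 4.

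With GA from 10 ng, 4 of 18 tested genes were called lower (all genes 6.14%) and none higher (all genes 2.09%), with a median of -0.41. At an adjusted p under 0.05, 7 were lower (all genes 17.4%) and none higher (all genes 10.5%). All 9 tested genes of the sterol synthesis steps had a mean below 0. Mvd was at -1.27, -0.92, -0.80 and -1.36, a mean of -1.09 ± 0.27 (adjusted p = 0.00269), and Hsd17b7 at -1.05, -0.92, -0.84 and -1.40, a mean of -1.05 ± 0.25 (adjusted p = 0.00269). Elovl6 was at -1.57, -1.08, -0.71 and -0.83, a mean of -1.05 ± 0.38 (adjusted p = 0.00513). Insig1 was called with a smaller ratio than in unamplified cDNA, at -0.83, -0.69, -0.63 and -0.82, a mean of -0.74 ± 0.10 (adjusted p = 0.00401). Without array 2 the calls numbered 2.

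With SMART from 10 ng, 23 of the genes were tested, the most after amplification, but 1 was called lower (all genes 1.01%) and none higher (all genes 2.53%). It was Sqle, at -0.31, -0.91, -0.73 and -1.31, a mean of -0.82 ± 0.41 (adjusted p = 0.014). At an adjusted p under 0.05, 5 were lower (all genes 2.42%) and none higher (all genes 4.65%). The median was -0.27, and 12 of 13 sterol synthesis genes had a mean below 0. Array 1 stood apart in this comparison, and without it 6 of the genes were called lower. The share of all genes called without array 1 was not computed, so this count has no background beside it. Without array 2 or array 3 none was called.

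With SM37, 5 of 16 tested genes were called lower (all genes 9.1%) and none higher (all genes 3.91%), with a median of -0.48. At an adjusted p under 0.05, 11 were lower (all genes 25.8%) and 2 higher (all genes 17.2%). Hsd17b7 was at -0.99, -1.15, -1.19 and -0.92, a mean of -1.06 ± 0.13 (adjusted p = 0.00032). Sc5d was at -0.93, -1.02, -1.24 and -1.01, a mean of -1.05 ± 0.13 (adjusted p = 0.000355), a larger difference than the -0.52 of unamplified cDNA. Fdft1 was at -0.79, -0.82, -1.14 and -0.63, a mean of -0.84 ± 0.21 (adjusted p = 0.000993). The other called genes were Elovl6 at -0.75 ± 0.22 (adjusted p = 0.00158) and Fdps at -0.59 ± 0.17 (adjusted p = 0.0029). Of the 5 called genes, 4 belong to the sterol synthesis steps, of which 8 were tested. Without array 1 or array 4 the calls numbered 3.

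At 10 pg the number of genes left was small. With SMART, 4 were tested and 1 was called lower (all genes 2.93%) and none higher (all genes 6.04%). It was Fdps, at -0.96, -1.25, -0.42 and -0.94, a mean of -0.89 ± 0.34 (adjusted p = 0.00097). At an adjusted p under 0.05, 2 were lower (all genes 14.9%) and none higher (all genes 18.4%). Without array 1 or array 3 the number called lower was 2, and without array 4 it was 0. With GA, 10 were tested and 2 were called lower (all genes 2.71%) and none higher (all genes 2.73%), with the same counts at an adjusted p under 0.05 (all genes 9.13% lower and 7.95% higher). They were Msmo1, at -2.15, -1.40, -2.62 and -3.00 (mean -2.29 ± 0.69, adjusted p = 0.00848), and Me1, at -2.07, -1.19, -3.06 and -2.67 (mean -2.25 ± 0.81, adjusted p = 0.0111), both with larger ratios than in unamplified cDNA. Without array 1 the number called lower was 1 and another gene was called higher, and without array 3 or array 4 none was called lower. The dye-swap pairs of this comparison correlated at 0.45 in limma, and with the pairs as a random block 1 gene was called lower.

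Arrays 3 and 4 of GA at 10 pg went against the direction of the other comparisons for most of these genes, as for most of all genes called lower in unamplified cDNA. Of the 14 genes called lower in unamplified cDNA, the values measured after amplification were below 0 in 47 of 49 with GA, 52 of 54 with SMART, 44 of 45 with SM37, 25 of 25 with SMART at 10 pg and 20 of 26 with IVTIII, and in 14 of 38 with GA at 10 pg. For all 743 genes called lower in unamplified cDNA the percentages were 83.4, 82.5, 86.3, 84.6, 71.3 and 38.9 in the same order. The median value in unamplified cDNA was -1.22 for the 14 genes and -0.75 for the 743, so these shares are not like for like. By array, the values below 0 with GA at 10 pg were 2 of 3 on array 1, 8 of 11 on array 2 and 2 of 12 on each of arrays 3 and 4. For all 743 genes the percentages on arrays 1 to 4 were 51.0, 52.9, 30.0 and 28.0. Fdps was at 2.00 and 2.21 on these arrays, Acly at 1.72 and 1.95, and neither had a value on the other arrays. Mvd was at -0.04, 2.52 and 2.28 on arrays 2 to 4, and Elovl6 at -0.10, 2.05 and 1.70, so that arrays 3 and 4 lay apart from array 2 for both genes. On the 2 arrays of OV against OV replicas with GA from 10 pg, Acly was at 1.51 and 1.33 and Elovl6 at 1.53 and 1.19. There Mvd was at -1.65 and -0.93 and Fdps at 0.00 and -0.03. Ratios of such size thus also arose for some of these genes without a cell line contrast. Not every gene turned, since Fasn was at -0.85, -2.52 and -1.21 on arrays 2 to 4. Over all genes, the r of arrays 1 to 4 with the mean of unamplified cDNA was 0.00, 0.00, -0.13 and -0.15, while arrays 3 and 4 correlated with each other at 0.85 and, turned by their dye labels like all arrays, with arrays 1 and 2 at 0.46 to 0.57. The signs above rest on these labels and would turn on an array labelled wrongly.

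**Figure D3:**
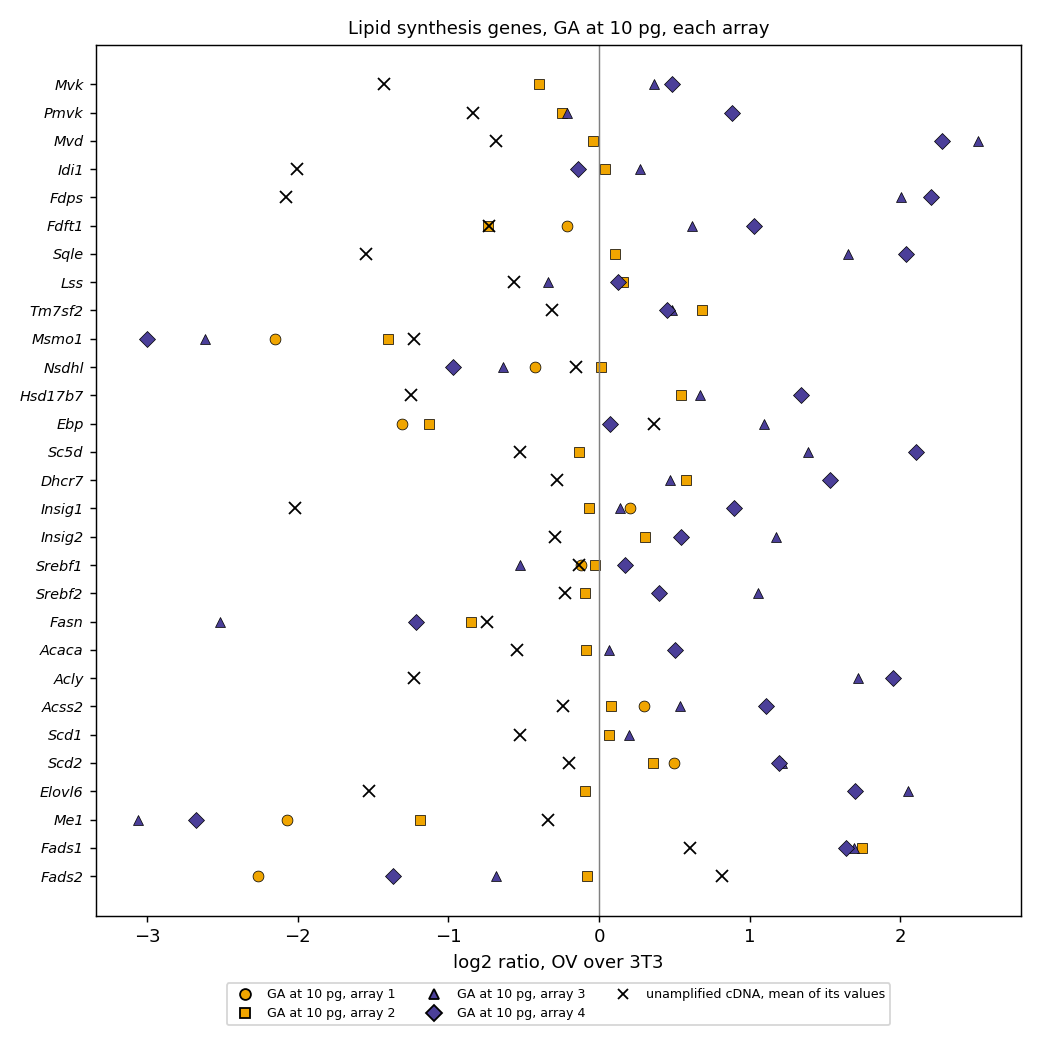
Log2 ratios of OV over 3T3 on each of the 4 arrays of GA at 10 pg, for the sterol and fatty acid synthesis genes with a value on more than 1 of them, with a cross for the mean of each gene in unamplified cDNA. On arrays 3 and 4 many points lie above 0, up to 2.52 for Mvd, whereas Msmo1, Me1 and Fads2 are below 0 on all 4 arrays. Of these, Fads2 has its cross above 0.

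Each amplified comparison was then set against unamplified cDNA in a fit of all 8 arrays, for genes with a value on all of them. The 4 unamplified arrays are common to the 6 fits, so the differences below are not independent of each other. The median size of the genes' unamplified ratios was 0.67 in the SMART fit, 0.64 with GA, 0.59 with IVTIII and 0.53 with SM37. Over all genes it was 0.23, 0.25, 0.27 and 0.23 in the same order. A larger ratio has more room to narrow, so the shares of genes that differed are not like for like. The study reports that SMART reduced ratios linearly. With SMART, 12 of 22 genes differed at an adjusted p under 0.05 (all genes 18%). For 11 of these 12 the SMART ratio was above a negative unamplified one: Cyp51 went from -2.35 to -0.70 (difference 1.64, adjusted p = 0.00101), Insig1 from -2.02 to -0.46 (1.56, adjusted p = 0.000399), Idi1 from -2.00 to -0.73 (1.27, adjusted p = 0.00213), Fdps from -2.08 to -0.82 (1.26, adjusted p = 0.00462) and Hsd17b7 from -1.25 to -0.19 (1.06, adjusted p = 0.00119). Mvk (1.00), Msmo1 (0.69) and Scd1 (0.54) followed by size, and Fads1 was the exception, from 0.60 to 0.14. Of the 22 genes, 19 (86.4%) had a ratio nearer 0 with SMART, as did 74.8% of all 6626 genes. With the arrays scaled to a common width, 6 of the genes differed in place of 12. Leaving out array 3 of SMART gave 6, and leaving out array 1 or array 4 of unamplified cDNA gave 7.

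With SM37, 8 of 16 genes differed (all genes 37.9%). Idi1 went from -2.00 to -0.50 (difference 1.5, adjusted p = 0.000148) and Fdps from -2.08 to -0.59 (1.49, adjusted p = 9.7e-05), both toward 0. Acaca went from -0.54 to 0.30 (0.85, adjusted p = 0.000396) and Ebp from 0.36 to -0.54 (-0.90, adjusted p = 0.00462), both across 0. Elovl6 (0.78), Acss2 (0.64) and Scd1 (0.53) also had higher ratios with SM37. Sc5d alone was farther below 0 than in unamplified cDNA (difference -0.52, adjusted p = 0.00477).

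With GA from 10 ng, 9 of 18 genes differed (all genes 21.4%). Idi1 went from -2.00 to -0.36 (difference 1.65, adjusted p = 0.000745) and Insig1 from -2.02 to -0.74 (1.27, adjusted p = 0.00237). Ebp went from 0.36 to -0.36 (-0.72, adjusted p = 0.00895) and Scd1 from -0.52 to 0.23 (0.75, adjusted p = 0.0193), so that both changed side. Acss2, from -0.24 to 0.34 (0.58, adjusted p = 0.0259), and Srebf1, from -0.14 to 0.44 (0.57, adjusted p = 0.0372), changed side as well. Msmo1 (0.82) and Acly (0.60) had higher ratios with GA and Fads2 a lower one (-0.68). Leaving out array 1 of unamplified cDNA gave 4 such genes and leaving out its array 4 gave 5.

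With IVTIII, 7 of 11 genes differed (all genes 48.1%). The largest difference was that of Scd2, from -0.20 to 1.76 (difference 1.97, adjusted p = 3.3e-06). Insig1 (1.21, adjusted p = 0.000841), Msmo1 (1.15, adjusted p = 0.000338), Acly (1.10, adjusted p = 7.1e-05) and Fdft1 (0.76, adjusted p = 0.000683) all had IVTIII ratios above their negative unamplified ones. Fads2 fell by 0.73 on the log2 scale, from 0.82 to 0.09 (adjusted p = 0.00594), and Ebp differed by 0.37 (adjusted p = 0.0211).

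At 10 pg, 1 of 4 genes differed with SMART (all genes 34.8%), Fdps from -2.08 to -0.89 (difference 1.19, adjusted p = 0.000857), and without array 1 or array 3 of SMART at 10 pg 2 and 3 did. With GA, 6 of 10 differed (all genes 35.9%), in both directions. Insig1 went from -2.02 to 0.29 (2.31, adjusted p = 0.000416) and Scd2 from -0.20 to 0.82 (1.02, adjusted p = 0.00846), and Acss2 differed by 0.75, whereas Me1 fell by 1.91 (adjusted p = 0.00398), Fads2 fell by 1.91 (adjusted p = 0.00901) and Msmo1 fell by 1.06 (adjusted p = 0.034). Without array 1 of GA at 10 pg, 18 of the genes differed. That array had values for 10 of the genes and the other arrays for 28 or 29. More genes could thus be tested without it, and the 18 is not comparable with the 6. The share of all genes was not computed for that fit.

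**Figure D4:**
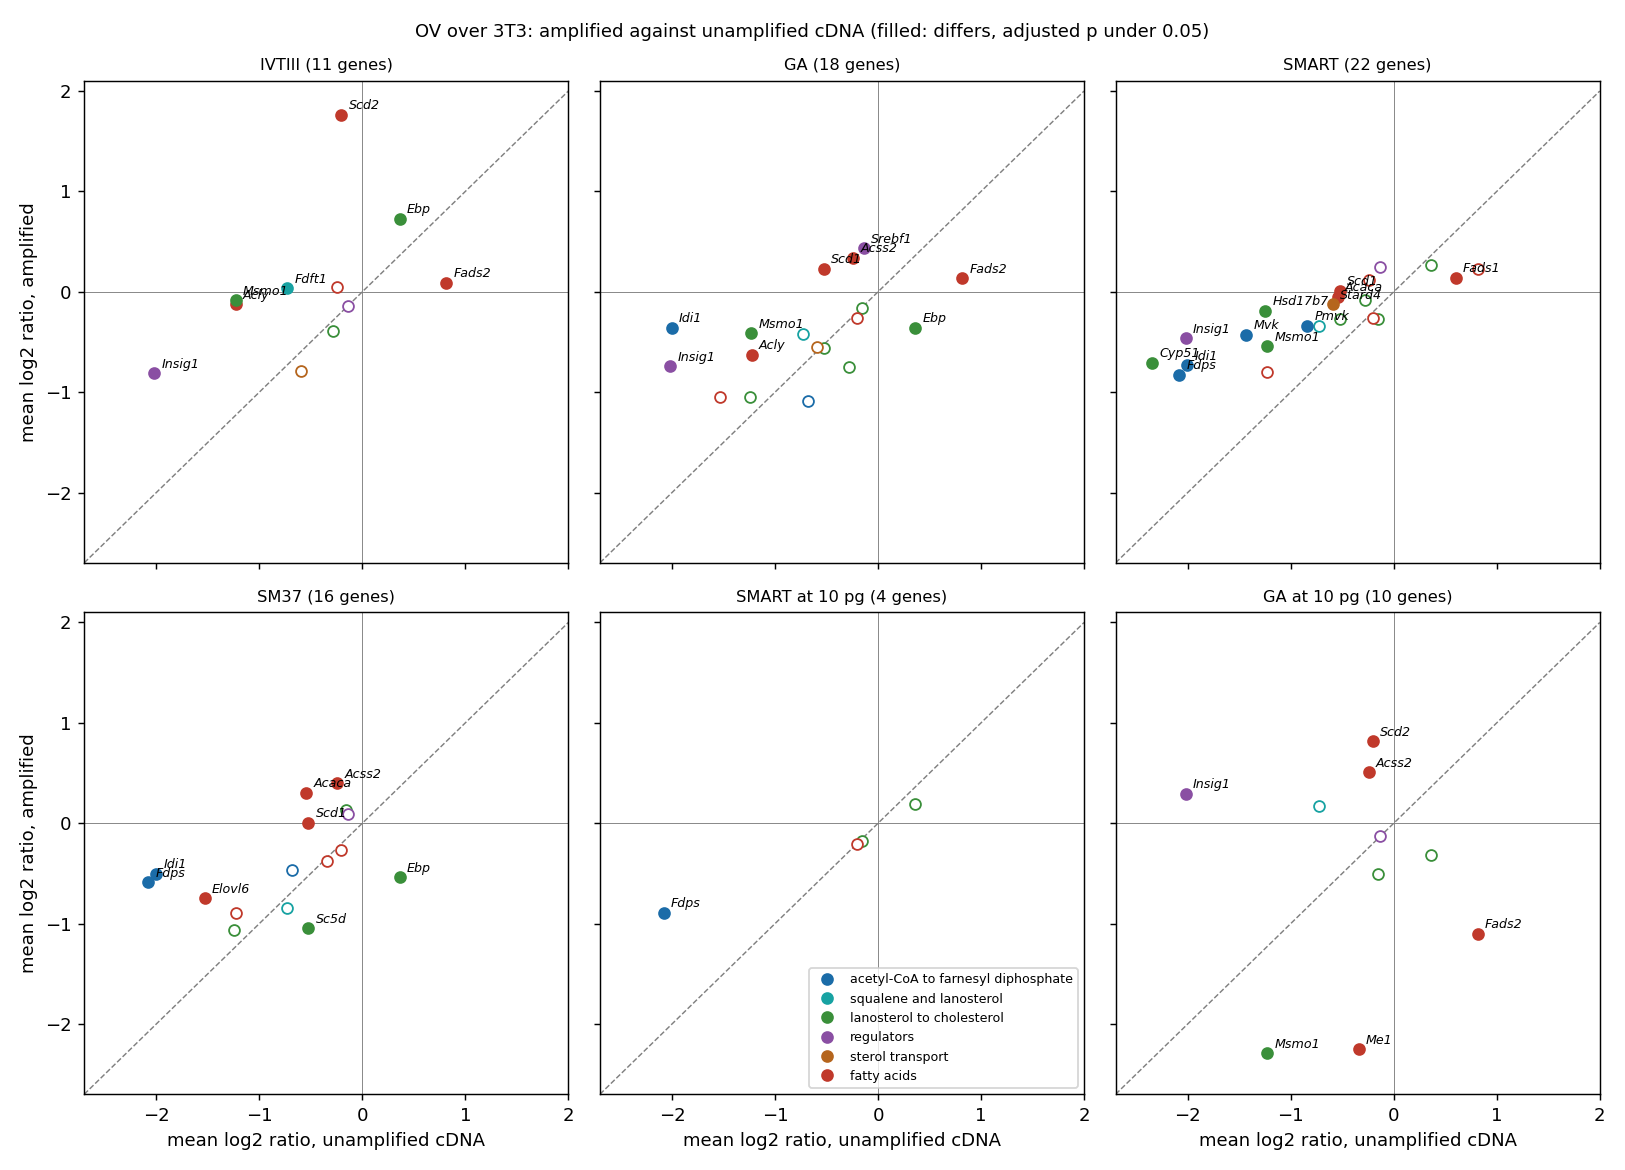
Mean log2 ratio of OV over 3T3 in each amplified comparison (vertical axes) against that in unamplified cDNA (horizontal axes) for the sterol and fatty acid synthesis genes, in a panel per comparison, with a dashed line of equal ratios, colors by role and filled points where the fit of all 8 arrays found a difference at an adjusted p under 0.05. In the SMART panel 19 of 22 genes lie nearer 0 than in unamplified cDNA, and Scd2 stands alone at the top of the IVTIII panel at 1.76.

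Arrays with no cell line contrast show how far these genes vary by technique alone. On the self-self array of unamplified cDNA they ranged from -0.14 for Fasn to 0.25 for Insig1, and on its array of replicas from -0.13 for Scd2 to 0.32 for Insig2. None of the genes passed a log2 ratio of 1 in either direction on any self-self array or on the replica arrays of targets amplified from 10 ng. The spread was widest at 10 pg without a steady rise toward it. The SD over these genes on the replica arrays of SMART was 0.27 and 0.19 from 10 ng, 0.09 and 0.11 from 1 ng, 0.24 and 0.18 from 100 pg, and 0.38 on both from 10 pg. For GA it was 0.31 and 0.34 from 10 ng, 0.25 and 0.35 from 1 ng, 0.26 and 0.40 from 100 pg, and 0.89 and 0.62 from 10 pg. Past 1 in either direction were Msmo1 on array 2 of SMART from 10 pg (-1.15), Me1 on array 2 of GA from 100 pg (1.11), and Mvd (-1.35) and Dhcr7 (1.03) on array 1 of the neural pools with GA. On array 1 of GA replicas from 10 pg, 9 of 29 genes (31.0%, beside 16.8% of all genes) passed 1, from Mvd at -1.65 to Pmvk at 1.84, and on array 2, 4 of 30 (13.3%, beside 6.75%). Of 28 of the genes measured on both, 24 had the same sign on both, as did 80.0% of all genes. No direction is given to these ratios beyond replica 1 over replica 2.

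**Figure D5:**
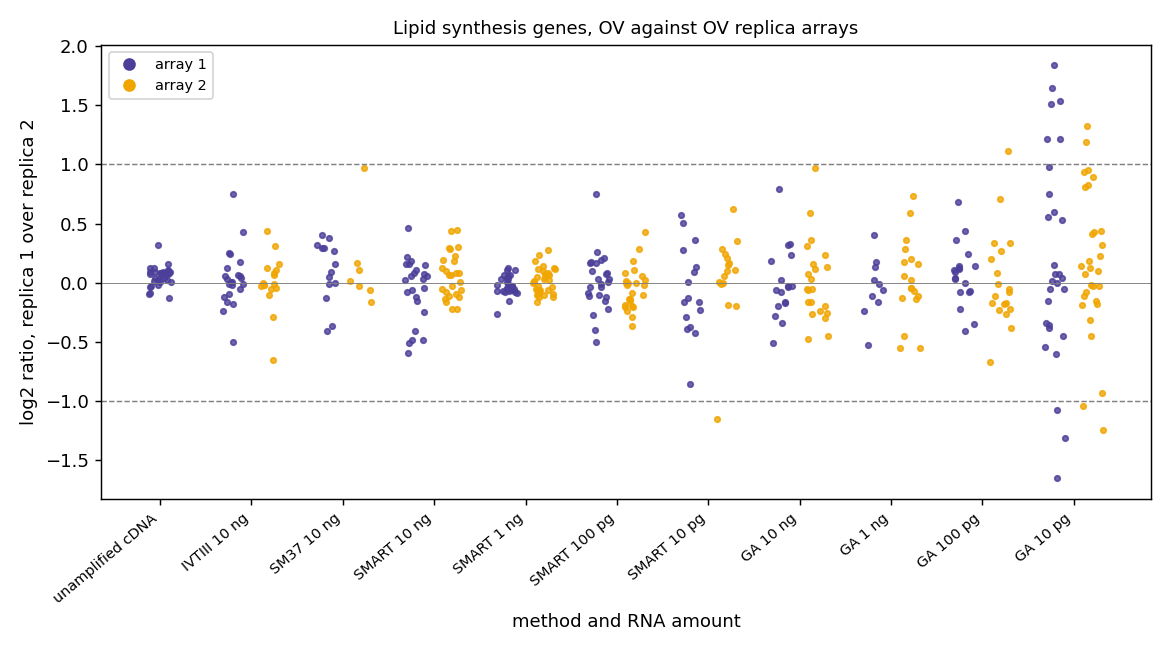
Log2 ratios (vertical axis, replica 1 over replica 2) of the sterol and fatty acid synthesis genes on arrays of OV against OV replicas, by amplification method and amount of RNA (horizontal axis), with a point per gene, a color per array and dashed lines at 1 and -1. Points stay within the lines at 10 ng and 1 ng, 1 point passes them with GA from 100 pg and 1 with SMART from 10 pg, and most of the points past them belong to GA from 10 pg, up to 1.84 for Pmvk.

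Across the 7 comparisons, no gene of the sterol synthesis steps was called both lower and higher in OV at LOD above 0. At an adjusted p under 0.05, Ebp was lower in 1 comparison and higher in 2. Fdps was called lower in 3 of the 4 comparisons that tested it, Hsd17b7 in 3 of 4, Elovl6 in 3 of 3 and Insig1 in 3 of 5. Other genes called lower in unamplified cDNA recurred less: Msmo1 in 2 of 5, Fdft1 in 2 of 6, Idi1 in 1 of 4, Stard4 in 1 of 4 and Acly in 1 of 5. Ebp and Scd2 were the only ones tested in all 7, and each was called once, higher with IVTIII, with means from -0.54 to 0.73 for Ebp and from -0.27 to 1.76 for Scd2. Nsdhl was tested in 6 comparisons and Srebf1 in 6 without a call in any, with means from -0.50 to 0.13 and from -0.14 to 0.44. Tmem97 of the further sterol genes was called lower in OV also with GA (-1.58), SMART (-0.77) and SM37 (-0.80).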

How the data were processed

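The deposited table holds a log2 ratio of the dyes for each probe and array. The authors computed it in limma from spot intensities after background subtraction, with print-tip lowess within each array, and it was used without further normalization. Intensities were not used here, so signal over background is unknown and the number of genes with a value stands in for it. Such within-array lowess sets the bulk of ratios near 0. Of 21997 probes, 231 controls were left out, 16632 of the others have 1 symbol in the platform annotation, 139 have several and 4995 have none. The values of all probes that name the same single gene were averaged, which gave 15063 genes.

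Groups, dyes and array numbers came from the labels. Where labels contradict themselves (array 1 of IVTIII names 3T3 for both channels, array 2 of GA speaks of replicas), the description and the source names, in that order, were followed. RNA amounts follow the titles and the methods.

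Ratios were tested against 0 with limma 3.58.1 in R 4.3.3 (lmFit and eBayes), across all genes with a value on all 4 arrays, with arrays taken as independent. Where arrays of a dye-swap pair resemble each other, the p-values of these fits can be too small. The random-block fits took the arrays as dye-swap pairs by their numbers. The correlation within pairs was 0.45 with GA at 10 pg, 0.33 with GA, 0.17 with SM37 and 0.08 with IVTIII. It was below 0 in unamplified cDNA and with SMART from 10 ng and 10 pg. The call, LOD above 0, is the rule of the study's methods. Differences from unamplified cDNA were tested in a fit of 8 arrays at a Benjamini-Hochberg adjusted p under 0.05. A motif count used promoter windows of RefSeq. The test was tried on simulated data. Alternatives were the adjusted p, 3 of 4 arrays, probes in place of genes, scaled arrays, medians, dye-swap pairs as a block, the array number as a block and leaving out each array. The genes and lists, and the rule for naming genes (all members, the called ones by array, and those that differ from unamplified cDNA), were chosen with earlier results of these data known.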

Additional observations from a re-analysis of the deposited data

Results flagged for a closer look

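Of 115 groups of 4 arrays of these genes, 4 held an array whose gap to the others exceeded Dixon's 95% limit, where chance alone would mark about 1 in 20 groups. In unamplified cDNA these were array 2 for Hsd17b7 (-0.75, the others from -1.43 to -1.37) and array 3 for Dhcr7 (-0.36, the others from -0.26 to -0.25). With IVTIII it was array 3 for Dhcr7 (-0.13, the others from -0.50 to -0.45), and with SM37 array 3 for Acss2 (0.71, the others from 0.28 to 0.33).

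Differences of the OV over 3T3 ratio between an amplified target and unamplified cDNA, with an adjusted p under 0.05 and either a size over 1.5 on the log2 scale or means of opposite sign, were found for the genes below, among up to 8 largest differences of each comparison. With IVTIII they were Scd2 (1.97) and Fdft1 (0.76, from -0.73 to 0.03). With GA they were Idi1 (1.65), Scd1 (0.75), Ebp (-0.72) and Acss2 (0.58). With SMART they were Cyp51 (1.64), Insig1 (1.56) and Scd1 (0.54). With SM37 they were Idi1 (1.5), Ebp (-0.90), Acaca (0.85), Acss2 (0.64) and Scd1 (0.53). With GA at 10 pg they were Insig1 (2.31), Fads2 (-1.91), Me1 (-1.91), Scd2 (1.02) and Acss2 (0.75). All these differences share the arrays of unamplified cDNA.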

How the results depend on the processing

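Counts of called genes depended on the rule for a call and on single arrays. At an adjusted p under 0.05 the genes lower in OV numbered 24 in unamplified cDNA (14 at LOD above 0), 4 with IVTIII, 7 with GA, 5 with SMART, 11 with SM37 and 2 with SMART at 10 pg, and those higher numbered 4 in unamplified cDNA and 2 with SM37, where that rule also called more of all genes, for example 24.8% lower in unamplified cDNA and 26.6% with IVTIII. With arrays scaled, 1 gene was called higher in unamplified cDNA, 4 were called lower with SMART, and 6 differed between SMART and unamplified cDNA. By probe, 2 were called lower with SMART. With dye-swap pairs as a random block, 2 were called lower with SMART and 1 with GA at 10 pg. With at least 3 of 4 arrays, 3 were called lower with SMART at 10 pg and 1 higher with GA at 10 pg. Those that differed from unamplified cDNA by that rule numbered 15 with GA, 4 with SMART at 10 pg and 18 with GA at 10 pg. The rule lets more genes be tested, and the shares of all genes were not computed for it.

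Leaving out 1 array gave 10 to 16 genes lower in unamplified cDNA, 0 to 1 with IVTIII, 2 to 5 with GA, 0 to 6 with SMART, 3 to 4 with SM37, 0 to 2 with SMART at 10 pg and 0 to 2 with GA at 10 pg, and 0 to 1 higher in unamplified cDNA and with GA at 10 pg. Every array of IVTIII, when left out, lowered its count. Those that differed from unamplified cDNA ranged from 4 to 10 with GA, 6 to 13 with SMART, 6 to 9 with IVTIII, 7 to 9 with SM37, 1 to 3 with SMART at 10 pg and 4 to 18 with GA at 10 pg. A fit without an array can test more genes, and the shares of all genes were not computed for these fits. The ratios of the 32 genes in unamplified cDNA were recomputed as medians, with scaled arrays and without each array, and no called gene changed sign.

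The array numbers do not pair the arrays: in no comparison did every pair of same-numbered arrays correlate above 0.1. With the array number as a replicate block, the genes that differed numbered 7 with IVTIII, 8 with GA, 10 with SMART, 8 with SM37, 1 with SMART at 10 pg and 5 with GA at 10 pg, none over 1.5 times from the fit without it. The count of measured genes limits the comparisons at 10 pg. The causes of these changes were not tested.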
